A study of Homo sapiens with 6 samples.

Results

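The genes described here encode the machinery that starts transcription in the nucleus, namely the subunits of RNA polymerases I, II and III, the general transcription factors with the TBP-associated factors (TAFs), and the Mediator complex. Members were the protein-coding genes of the count table whose symbol begins with POLR1, POLR2, POLR3, GTF2 or GTF3, or is TBP, a TAF or a MED number. They came to 112 rows with 111 symbols (POLR2J3 has 2 rows) of 30230 rows in all, and 109 of them passed the filter on low counts, of 17076 genes that did. The study sequenced polyadenylated RNA of A549, a single human lung adenocarcinoma cell line of epithelial origin, in 3 control libraries (NC) and 3 libraries made after FSCN1 silencing (siFSCN1). FSCN1 encodes fascin, a protein that bundles actin filaments. Silencing used a transient siRNA transfection for 48 h, and the study's text names 1 siRNA for these libraries. The control cells received a scrambled siRNA according to the study's methods, whereas the treatment label names a control plasmid. The study calls the libraries biological replicates, but the labels do not say that they came from separate cultures, so the p-values measure the spread between these libraries, which may be technical.

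RNA polymerase I transcribes the genes of the large ribosomal RNAs, RNA polymerase II the protein-coding genes, and RNA polymerase III the genes of transfer RNAs, 5S ribosomal RNA and other short RNAs. Each enzyme needs its own factors to find a promoter: SL1 for polymerase I, TFIIA to TFIIH with TFIID for polymerase II, and TFIIIA, TFIIIB and TFIIIC for polymerase III. Mediator links activators bound to DNA with polymerase II and is built of a head, a middle, a tail and a separable kinase module.

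FSCN1 (ENSG00000075618.18, chr7:5592816-5606655, plus strand, GRCh38) was at 211, 220 and 212 CPM (counts scaled to library size, here after TMM scaling) in the NC libraries and at 18.2, 11.8 and 13.2 CPM in the siFSCN1 libraries. The groups did not overlap, and the log2 fold change of siFSCN1 over NC was -3.89 (SE 0.094, adjusted p = 8.1e-16, edgeR's quasi-likelihood test). Library totals were between 27967301 and 36560919 counts. The label A549 was met by its markers: AKR1B10 and NQO1, which are high in this line, were at 2677 and 583 FPKM in NC (fragments per length of the gene and depth of the library), and keratins KRT8 and KRT18 were at 973 and 1815 FPKM in NC. The epithelial and line markers moved in both directions with the silencing: KRT8, KRT18, KRT19 and NQO1 were lower at -0.88, -0.99, -1.10 and -0.58 on the log2 scale, and CDH1, ALDH3A1 and EPCAM were higher at 1.35, 0.48 and 0.29. The sum of the 5 epithelial markers was between 2607 and 3001 FPKM in NC and between 1526 and 1854 FPKM in siFSCN1, and its part in the members' values was not tested. The alveolar type II cell markers SFTPC and LAMP3 were at most at 0.09 FPKM in either group's mean, and summed markers of fibroblasts, leukocytes and endothelial cells reached no more than 0.41 FPKM in any library. In bulk RNA, fewer cells of a type and less RNA per cell cannot be told apart.

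Across the machinery, falls outnumbered rises, and nearly all changes were small. Of the 109 members tested, 76 (69.7%) passed an adjusted p of 0.05, beside 68.3% of all genes tested. Of the members, 24 (22%) were higher in siFSCN1, beside 35.1% of all genes, and 52 (47.7%) were lower, beside 33.2% of all genes. The other 33 did not pass. The counts given below for each complex are to be read beside these same shares, and most complexes hold few genes. Only 5 members (4.59%) passed with a change of at least 2-fold, beside 16.5% of all genes. POLR3GL and GTF2IRD2B were the 2 higher ones (1.83% of members, beside 11.7% of all genes), and GTF3C5, POLR2E and POLR2L were the 3 lower ones (2.75%, beside 4.85%). The CPM of the groups did not overlap for 78 members (71.6%), beside 71.2% of all genes.

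The median log2 fold change of the members was -0.17, beside 0.03 over all genes tested and -0.02 over protein-coding genes. The members were of middling to high level, with a median of 4.82 FPKM against 2.09 for all genes tested. Among the 7917 protein-coding genes between the 10th and 90th percentile of member level (1.22 to 21.1 FPKM), the median was -0.07, with 33.2% higher, 42.8% lower and 8.24% changed at least 2-fold. The direction counts rest on the scaling: with library totals alone the median of all genes was 0.22, and 44 members were higher and 35 lower; with upper quartile scaling it was 0.15, with 35 higher and 39 lower. The gap between the members' median and that of all genes was -0.20 under TMM. It was -0.12 with offsets that take out the trend with abundance, -0.09 on log2(FPKM + 1) and -0.31 with no filter beyond 1 count. Many members overlap another gene. Among those named here, POLR1E, POLR1G, POLR2B, POLR2E, POLR2L, GTF3A, TAF12, TAF1C, POLR3G, MED11, MED16 and MED23 each overlap one on the opposite strand. POLR2M, POLR3GL, GTF2F1, GTF2IRD2, TAF9, TAF15, MED13L and MED20 overlap one on the same strand. These lists are not complete, and the share of such reads in the counts was not tested.

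**Figure D1:**
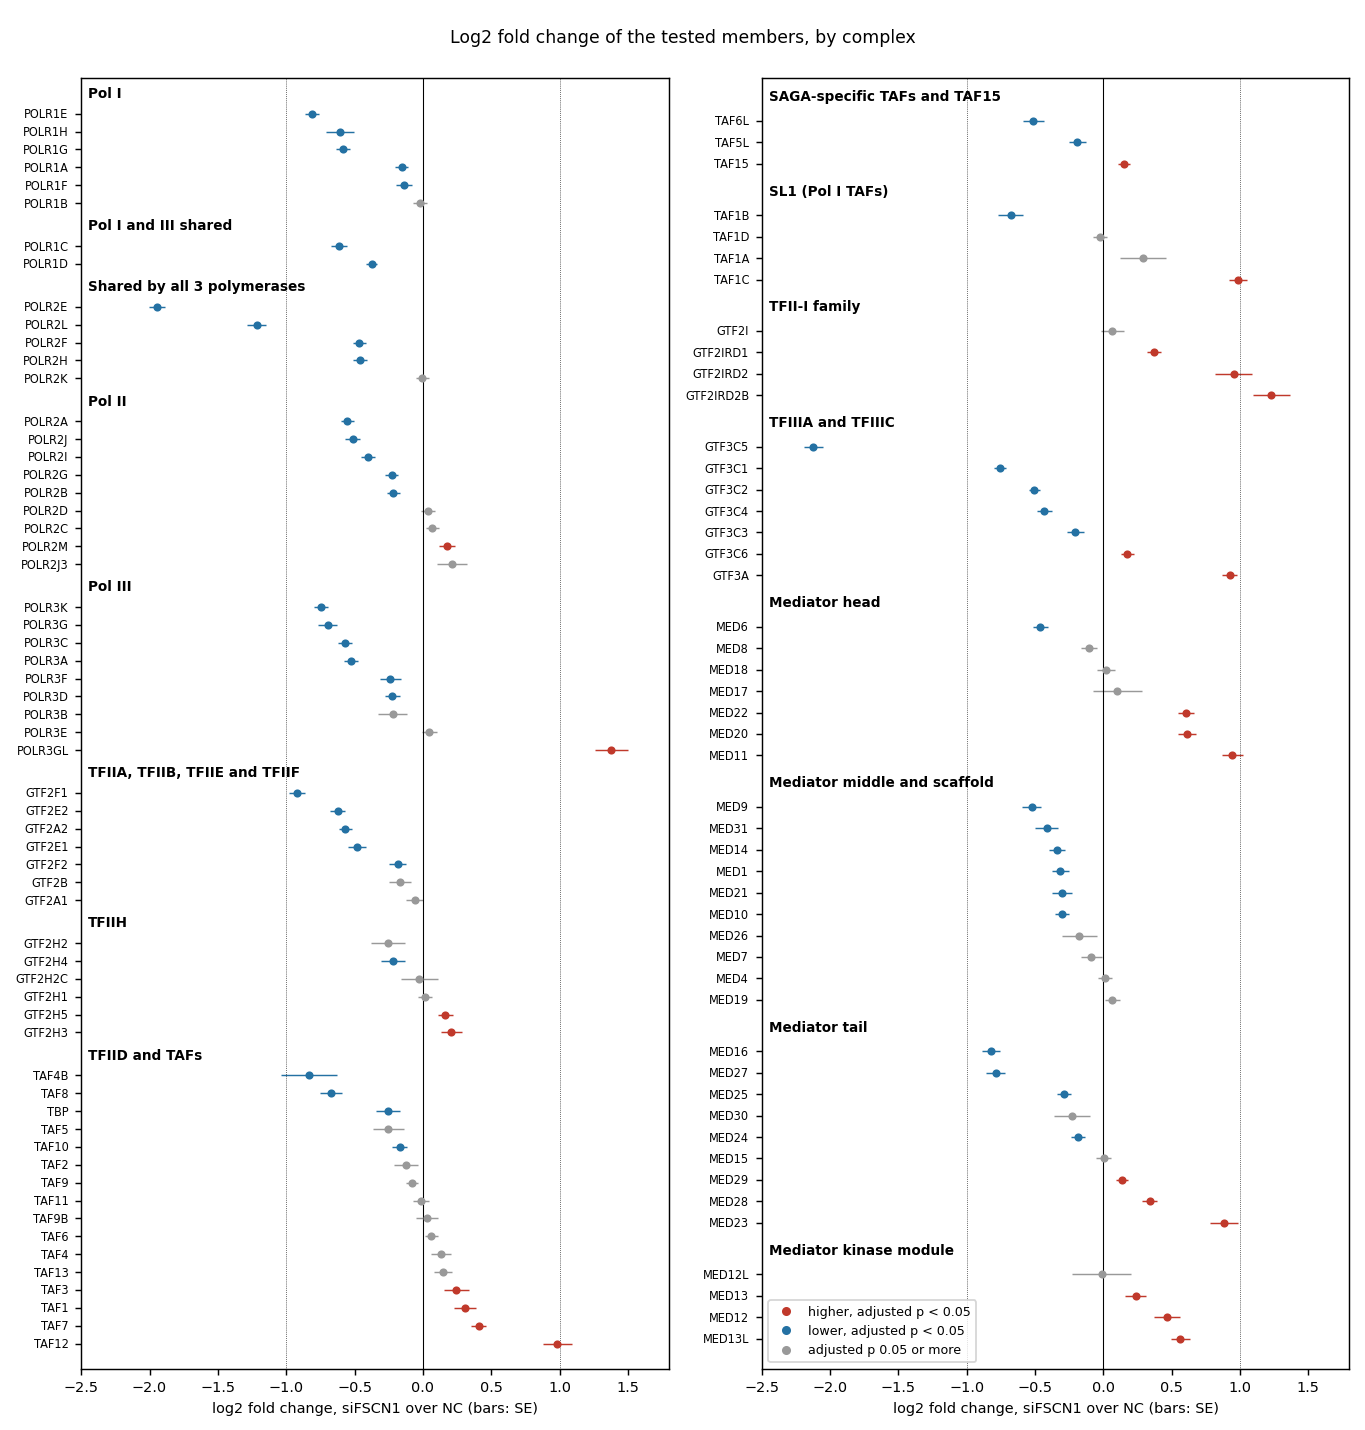
Log2 fold change of siFSCN1 over NC for the tested members named in the plot, grouped by complex, under TMM scaling. Points are fitted values and bars are standard errors derived from the F statistic of the test. Colours give the call at an adjusted p of 0.05, and dotted lines mark 2-fold. GTF3C5 at -2.12 and POLR2E at -1.95 lie farthest left and POLR3GL at 1.38 farthest right, while most members lie within the 2-fold lines.

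**Figure D2:**
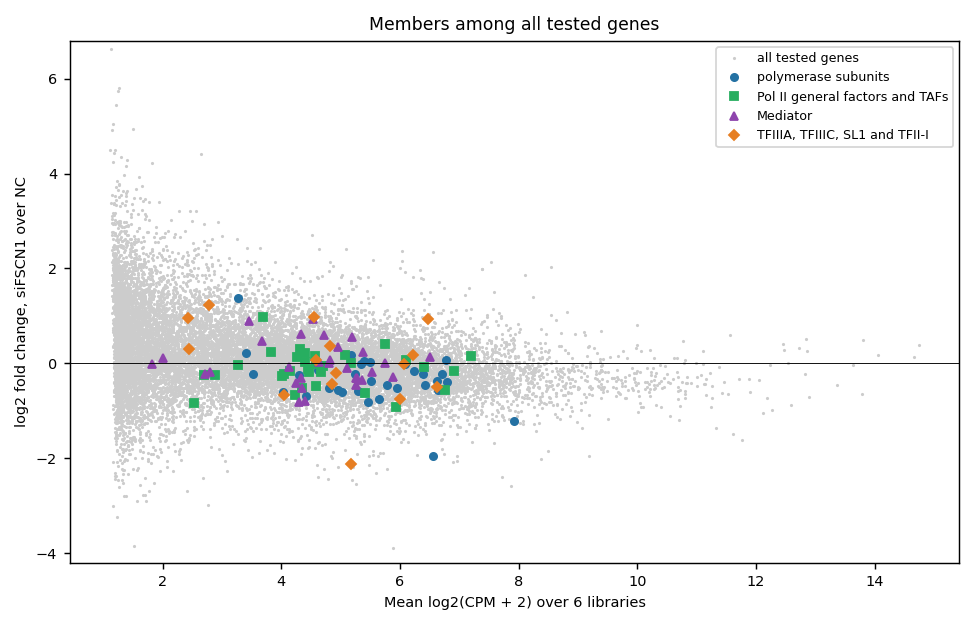
Log2 fold change against mean log2(CPM + 2) over the 6 libraries for all 17076 tested genes (grey) and the 109 tested members (coloured by class). The members lie in the middle of the abundance range, and 5 of them passed with a change of at least 2-fold.

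The polymerase subunits leaned to lower levels. Of 32 tested subunits, 23 were lower, 2 were higher and 7 did not pass, with a median of -0.37. Their median differed from that of all genes by -0.40 under TMM, by -0.25 with offsets against abundance and by -0.26 on log2(FPKM + 1). With library totals alone, 8 subunits were higher and 17 lower. The summed level of the polymerase subunits was 2200, 2195 and 2210 CPM in NC and 1589, 1543 and 1500 CPM in siFSCN1, a change of -29.9% with no overlap. A large part of that fall lay in POLR2E and POLR2L.

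Of the 5 subunits that all 3 polymerases share, 4 were lower and 1 did not pass. Their summed level was 776 ± 12.6 CPM in NC and 388 ± 31.0 CPM in siFSCN1 (SD, n = 3), a change of -50.0%. Most of that fall lay in POLR2E and POLR2L, so it does not describe the shared subunits alike. POLR2E, the RPB5 subunit at the jaw of the enzymes, was at 180, 184 and 175 CPM in NC and at 52, 43.5 and 44.3 CPM in siFSCN1. Every siFSCN1 library was far below every NC library, with a log2 fold change of -1.95 (SE 0.057, adjusted p = 5.6e-15), or 3.85-fold lower. POLR2L, the small RPB10 subunit that helps the enzyme assemble, was at 372, 358 and 379 CPM in NC and at 185, 156 and 137 CPM in siFSCN1. It was the most abundant member per length (261 FPKM in NC), and it fell without overlap by 1.22 on the log2 scale (SE 0.070, adjusted p = 3.4e-11). POLR2F (RPB6) and POLR2H (RPB8) changed by -0.46 each, with adjusted p of 3.7e-08 and 1.9e-07. POLR2K (RPB12) differed from its shared partners: it was at 64.1, 63.5 and 69.2 CPM in NC and at 66.0, 66.3 and 63.9 CPM in siFSCN1. The groups overlapped, and its log2 fold change was -0.00 (SE 0.049, adjusted p = 0.94).

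POLR1C and POLR1D, the assembly subunits that polymerases I and III share, were both lower, at -0.61 (SE 0.061) and -0.38 (SE 0.042). Among the 6 subunits found only in polymerase I, 5 were lower and 1 did not pass, with a median of -0.37. POLR1E, the initiation and elongation subunit that pairs with POLR1G, was at 55.5, 55.5 and 56.5 CPM in NC and at 32.5, 31.4 and 31.4 CPM in siFSCN1. The replicates were close together in both groups, and POLR1E fell by 0.81 on the log2 scale (SE 0.049, adjusted p = 6.2e-11). POLR1G, its partner, and POLR1H, the RNA cleavage subunit, were lower at -0.59 and -0.61. The catalytic subunits moved little. POLR1A, the largest, was at -0.16 (SE 0.049, adjusted p = 0.0087) under TMM but at 0.03 with library totals and 0.02 with offsets that take out the trend with abundance. POLR1B, the second largest, was at -0.02 (adjusted p = 0.77).

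Of the 9 tested members of polymerase II outside the shared subunits, 5 were lower, 1 was higher and 3 did not pass, with a median of -0.22, whereas with library totals 3 were lower and 4 higher. The large catalytic subunits were both lower under TMM. POLR2A, which carries the C-terminal heptad repeats that are phosphorylated during the transcription cycle, was at 113, 125 and 117 CPM in NC and at 81.9, 78.7 and 81.1 CPM in siFSCN1. Its groups were well apart, with a log2 fold change of -0.55 (SE 0.046, adjusted p = 5.4e-09). POLR2B was at -0.22 (SE 0.049, adjusted p = 0.00075), which became -0.03 (adjusted p = 0.65) with library totals. POLR2J (RPB11) and POLR2I (RPB9) were lower at -0.51 and -0.40, and POLR2G, a stalk subunit, at -0.23. POLR2D, the other stalk subunit, and POLR2C (RPB3) were at 0.04 and 0.07 and did not pass. POLR2M, which encodes an inhibitor associated with polymerase II, was at 0.17 (adjusted p = 0.013), and without NC replicate 1 at 0.10 (adjusted p = 0.16). The POLR2J copies share sequence, so their counts are uncertain: POLR2J3 was at 0.21 (adjusted p = 0.098). POLR2J2 held between 3 and 10 counts in any library and the other row of POLR2J3 between 1 and 9, so neither was tested.

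Of the 6 paralog pairs compared, the RPC32 pair of polymerase III was the only one whose order of levels differed between the groups. Of the enzyme's 10 own subunits, 7 were lower, 1 was higher and 2 did not pass, with a median of -0.30. POLR3G and POLR3GL encode alternative forms of the RPC32 subunit, and POLR3G is known for its high level in stem cells and tumour cells. POLR3G was at 23.1, 26.5 and 24.4 CPM in NC and at 14.1, 16.2 and 15.2 CPM in siFSCN1. POLR3GL went the other way, from 5.29, 3.95 and 4.58 CPM in NC to 11.5, 12.6 and 11.9 CPM in siFSCN1. Neither gene's groups overlapped. The log2 fold changes were -0.70 for POLR3G (SE 0.071, adjusted p = 7.8e-08) and 1.38 for POLR3GL (SE 0.121, adjusted p = 1e-08), and on log2(FPKM + 1) that of POLR3G was -0.43. Per length, the ratio of POLR3G to POLR3GL was 2.46 ± 0.532 in NC and 0.569 ± 0.0155 in siFSCN1 (FPKM, SD, n = 3), so that POLR3G was the higher form in each NC library and POLR3GL in each siFSCN1 library. GENCODE v44 has a gene model on the same strand that overlaps POLR3GL over 13122 bases, and how the authors' counting shared out such reads is not given in the sources used here.

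Among the other polymerase III subunits, POLR3K, which cleaves RNA at termination, was at 61.6, 61.3 and 63.0 CPM in NC and at 38.4, 36.7 and 35.7 CPM in siFSCN1. It fell by 0.75 on the log2 scale (SE 0.050, adjusted p = 2.6e-10). The largest subunit POLR3A was lower at -0.52 (SE 0.051, adjusted p = 4.1e-08). The second largest, POLR3B, was at -0.22 (SE 0.105) and did not pass (adjusted p = 0.069). POLR3C at -0.57, POLR3F at -0.24 and POLR3D at -0.22 were lower, and POLR3E at 0.04 did not pass.

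The factors that guide polymerase III split. TFIIIC binds the internal promoters of transfer RNA genes, and 5 of its 6 subunits were lower. GTF3C5 was at 72.4, 69.5 and 70.0 CPM in NC and at 18.5, 14.8 and 15.3 CPM in siFSCN1. It showed the strongest fall of all members, 4.35-fold, with a log2 fold change of -2.12 (SE 0.068, adjusted p = 1.6e-14). GTF3C1, the largest subunit, was at -0.76 (SE 0.046), and GTF3C2, GTF3C4 and GTF3C3 were at -0.51, -0.43 and -0.21. GTF3C6, the smallest subunit, was higher at 0.18 (SE 0.047, adjusted p = 0.0031). GTF3A encodes TFIIIA, which binds 5S ribosomal RNA genes and the 5S RNA itself, and was at 67.3, 56.3 and 65.0 CPM in NC and at 121, 120 and 117 CPM in siFSCN1. It rose without overlap by 0.92 on the log2 scale (SE 0.056, adjusted p = 6e-11). The summed level of TFIIIA and TFIIIC changed by -14.9% in CPM but by 14.9% in FPKM. The deposited FPKM carry no TMM factor, and they also divide each gene by its length, so a sum weighs the genes differently from CPM. The part of each in the turn of sign was not tested.

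**Figure D3:**
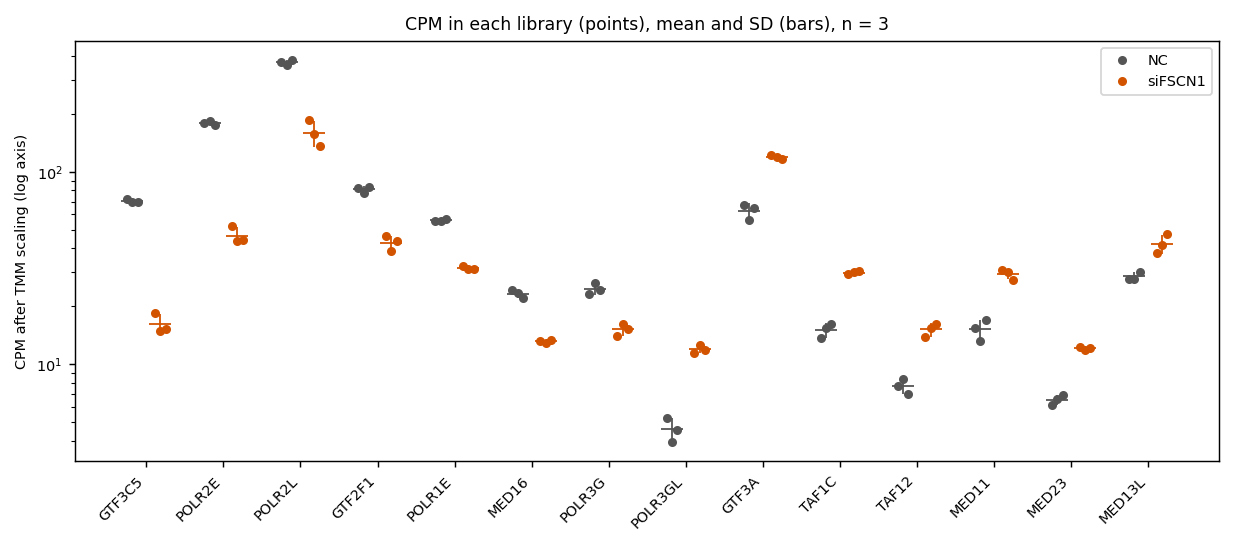
CPM after TMM scaling (log axis) of 14 members in each library, with NC in grey and siFSCN1 in orange. Points are libraries, wide ticks are means and bars are SD (n = 3). The groups do not overlap for any of the 14, with GTF3C5, POLR2E, POLR2L, GTF2F1, POLR1E, MED16 and POLR3G lower and POLR3GL, GTF3A, TAF1C, TAF12, MED11, MED23 and MED13L higher in siFSCN1.

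The siRNA named for these libraries targets the 3′ UTR of FSCN1, and a guide strand can also pair with other transcripts through its seed, the bases 2 to 8 from its 5′ end. The seed match was therefore searched in the longest annotated 3′ UTR of each gene. The FSCN1 site and the member sites below are shown because they belong to the 3 members that fell at least 2-fold and to TAF12 and POLR3GL, the strongest rises among the 6 members with a match that were higher. They were read from GENCODE v44 transcripts (GRCh38), on the strand of the gene, with the 7-base seed match in capitals.
FSCN1 target site, chr7:5605786-5605804, plus strand: gagccttatttCTCTGGAa
GTF3C5, chr9:133058410-133058439, plus strand: agtgcctttagCTCTGGAtcccaaccgttt
GTF3C5, chr9:133058456-133058485, plus strand: cagccaggcccCTCTGGAattgtccttatt
POLR2E, chr19:1088606-1088635, minus strand: ggctgctgctcCTCTGGActccccaaggca
POLR2E, chr19:1088231-1088260, minus strand: cgagatgccagCTCTGGAgttctcggttgt
POLR2L, chr11:840224-840253, minus strand: ccgataccccaCTCTGGAaggaaccatcca
POLR3GL, chr1:145978444-145978473, plus strand: ctgaagaaggaCTCTGGAccctcgtgtctt
TAF12, chr1:28605234-28605263, minus strand: caaacttcactCTCTGGAgcaagggtcaga
TAF12, chr1:28604643-28604672, minus strand: tagcctggtatCTCTGGAgccggtgtttgt

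All 3 members that fell at least 2-fold held a match, with 2 in GTF3C5, 2 in POLR2E and 1 in POLR2L. The share with a match among all genes that fell at least 2-fold is not given here. Matches were also present in members that did not fall. TAF12 (2 matches) and POLR3GL, GTF2H5, MED28, TAF15 and TAF3 (1 match each) were higher, and POLR2D (2 matches) was at 0.04 and did not pass. Of the 105 tested members with a 3′ UTR of at least 50 bases, 21 (20.0%) held at least 1 match, beside 19.2% of the 13241 tested protein-coding genes with such a UTR. Of those 21 members, 12 (57.1%) were lower and 6 (28.6%) were higher, beside 43.6% and 31.0% of the protein-coding genes with a match and 44% and 21.4% of the 84 members with none. Of the 10699 protein-coding genes with no match, 36.5% were lower and 35.2% were higher. The median log2 fold change was -0.15 for the 84 members with no match, -0.17 for the 17 with 1 match and -0.95 for the 4 with 2 matches, beside -0.00, -0.10 and -0.14 for protein-coding genes with 0, 1 and at least 2 matches. Without the members that held a match, 18 members were higher and 40 lower, the median was -0.17 and only GTF2IRD2B was changed at least 2-fold. The part of the seed matches in these values was not tested.

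**Figure D4:**
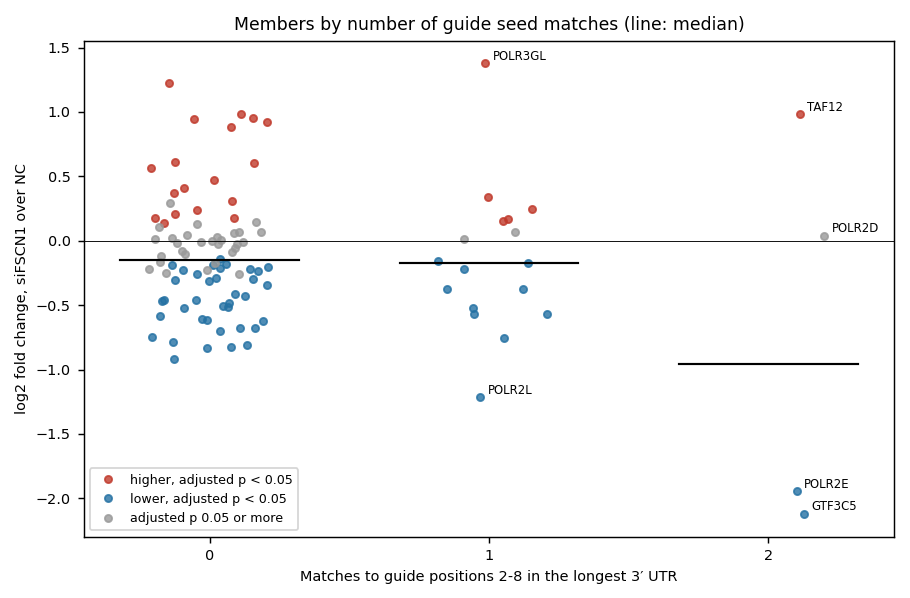
Log2 fold change of siFSCN1 over NC for 105 members by the number of matches to the guide seed in the longest 3′ UTR. Points are members, coloured by call and spread sideways at random, and lines are medians (-0.15, -0.17 and -0.95 for 0, 1 and 2 matches). The 4 members with 2 matches range from -2.12 (GTF3C5) to 0.98 (TAF12).

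Among the factors that place polymerase II on promoters, TFIIA, TFIIB, TFIIE and TFIIF were mostly lower. Of their 7 tested genes, 5 were lower and 2 did not pass, with a median of -0.48, and their summed level changed by -31.5%. GTF2F1, the large subunit of TFIIF, which escorts polymerase II to the promoter, was at 82.6, 77.7 and 82.8 CPM in NC and at 46.2, 38.8 and 43.5 CPM in siFSCN1. It fell by 0.92 on the log2 scale (SE 0.059, adjusted p = 1.5e-10). Both subunits of TFIIE, which recruits TFIIH, were lower, GTF2E2 at -0.62 and GTF2E1 at -0.48. GTF2A2, the small subunit of TFIIA, was lower at -0.57, and GTF2F2, the small subunit of TFIIF, at -0.18. GTF2B, which encodes TFIIB, was at -0.17 (adjusted p = 0.071) and GTF2A1 at -0.06, and neither passed.

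TFIIH, which opens promoter DNA and takes part in nucleotide excision repair, showed no common direction in its GTF2H subunits. Of 6 tested, 2 were higher, 1 was lower and 3 did not pass, with a median of -0.01 (0.18 with library totals). GTF2H5 was at 0.16 (SE 0.053, adjusted p = 0.01). No TFIIH gene was called higher without NC replicate 2, without siFSCN1 replicate 3 or with DESeq2. GTF2H3 at 0.21 and GTF2H4 at -0.22 passed only narrowly (adjusted p of 0.026 and 0.03). Leaving out single libraries ended the call of GTF2H3 in 5 of 6 cases (adjusted p between 0.057 and 0.18) and that of GTF2H4 without NC replicate 2, NC replicate 3 or siFSCN1 replicate 2 (adjusted p between 0.052 and 0.086). GTF2H2 at -0.26 and its near-identical copy GTF2H2C at -0.03 may share reads and did not pass.

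TFIID, the complex of TBP and the TAFs that recognises core promoters, stayed close to the median of all genes. Of its 16 tested genes, 4 were higher, 4 were lower and 8 did not pass, with a median of 0.01. With library totals alone, 10 were higher and 2 lower. The summed level was 503 ± 7.37 CPM in NC and 504 ± 1.82 CPM in siFSCN1, and the groups overlapped. On summed FPKM, which carry no TMM factor, it was 15.8% higher in siFSCN1 with no overlap. TAF12, a histone-fold subunit that also sits in the SAGA coactivator, was at 7.68, 8.39 and 7.04 CPM in NC and at 13.8, 15.4 and 16.3 CPM in siFSCN1. It rose without overlap by 0.98 on the log2 scale (SE 0.106, adjusted p = 1.7e-07). TAF7 at 0.41, TAF1, the largest subunit, at 0.31 and TAF3, a reader of methylated histone H3, at 0.24 were also higher. TBP itself was at 14.6, 16.6 and 15.3 CPM in NC and at 12.5, 13 and 13.3 CPM in siFSCN1, with a log2 fold change of -0.26 (SE 0.087, adjusted p = 0.014). Its call was lost in 5 of 16 alternatives, namely without NC replicate 2 (-0.22, adjusted p = 0.064), with upper quartile scaling, with library totals (-0.07, adjusted p = 0.50) and with both limma fits on FPKM. TAF8 was lower at -0.67 (SE 0.080, adjusted p = 6.3e-07), and TAF10 at -0.17. TAF4B, a paralog of TAF4 known from the germ line and from B cells, was at 3.04, 6.60 and 5.55 CPM in NC and at 2.59, 2.79 and 3.12 CPM in siFSCN1. NC replicate 1 lay within the siFSCN1 range, so the groups overlapped although the test gave -0.84 (SE 0.204, adjusted p = 0.0014). TAF4 was at 0.13 (adjusted p = 0.13). The paralogs TAF9 and TAF9B were at -0.08 and 0.03 and did not pass. TAF7L, a paralog of TAF7 known from germ cells and fat cells, had 0 counts in each NC library and 4, 2 and 5 counts in siFSCN1 and was not tested.

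The TAFs outside TFIID also differed among themselves. TAF6L and TAF5L, the SAGA paralogs of TAF6 and TAF5, were lower at -0.51 and -0.19, and TAF15, an RNA-binding protein of the FET family, was at 0.15 (adjusted p = 0.0044), or at 0.10 (adjusted p = 0.053) without NC replicate 1. SL1 brings polymerase I to ribosomal DNA, and its subunits TAF1B and TAF1C went opposite ways. TAF1C was at 13.6, 15.4 and 16.3 CPM in NC and at 29.4, 30.1 and 30.4 CPM in siFSCN1. It rose by 0.99 on the log2 scale (SE 0.065, adjusted p = 2.1e-10). TAF1B was at 17.0, 20.5 and 17.7 CPM in NC and at 10.7, 11.6 and 12.1 CPM in siFSCN1, with no overlap and a log2 fold change of -0.68 (SE 0.092, adjusted p = 3.3e-06). TAF1A at 0.29 and TAF1D at -0.02 did not pass.

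The TFII-I family, whose members bind DNA through repeated domains and whose genes lie in the Williams syndrome region, held 3 higher genes of 4, with a median of 0.66. GTF2IRD2B was at 3.18, 2.54 and 3.53 CPM in NC and at 7.55, 6.58 and 7.70 CPM in siFSCN1. Its log2 fold change was 1.23 (SE 0.135, adjusted p = 2.2e-07), or 0.53 on log2(FPKM + 1), a scale that understates low genes. That of its near-identical copy GTF2IRD2 was 0.95 (SE 0.135, adjusted p = 5.2e-06). Reads can be shared between these copies, so the split between them is uncertain. GTF2IRD1 was higher at 0.37, and GTF2I itself was at 0.06 and did not pass.

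**Figure D5:**
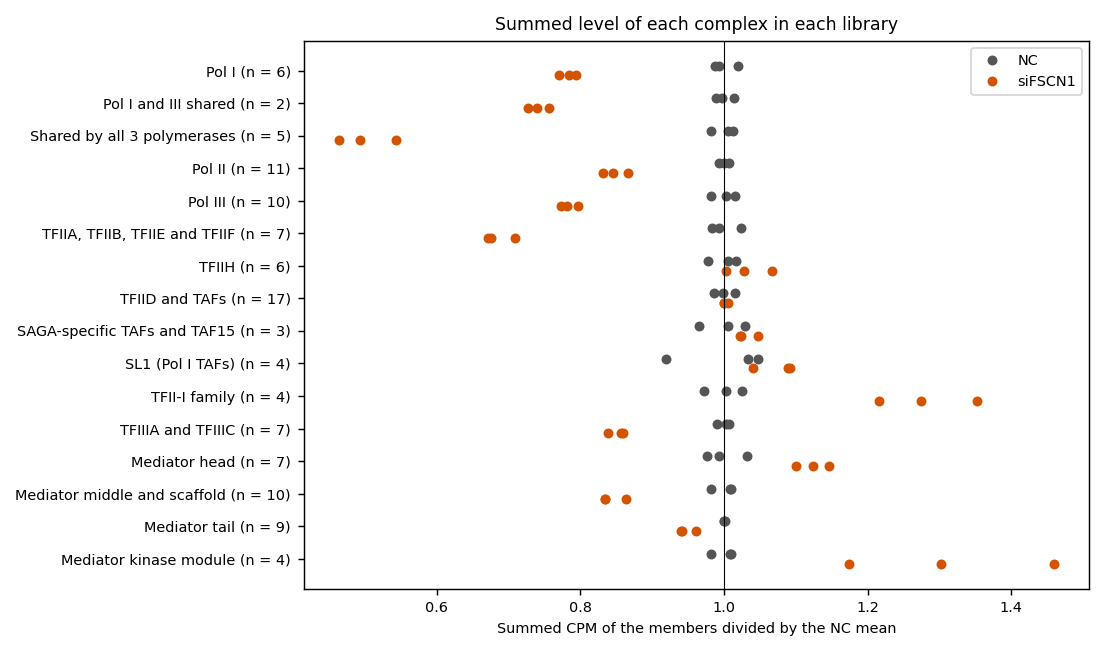
Summed CPM (after TMM) of the members of each complex in each library, divided by the NC mean of that complex. Grey points are NC libraries, orange points siFSCN1 libraries and n is the number of members summed. The subunits shared by all 3 polymerases lie lowest in siFSCN1 (-50.0% in the mean), mostly through POLR2E and POLR2L. The TFII-I family and the Mediator kinase module lie highest (28.1% and 31.2%), and TFIID, TFIIH, SL1 and the SAGA group with TAF15 overlap with NC. On summed FPKM, TFIIIA with TFIIIC and the Mediator tail turn to higher, and the Mediator middle with its scaffold overlaps with NC (-2.15%). TFIID, TFIIH, SL1 and the SAGA group with TAF15 are higher on summed FPKM without overlap (15.8%, 13%, 19.1% and 12.2%).

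Mediator as a whole was near the median of all genes, but its modules had different medians. These were 0.10 in the head, -0.30 in the middle with its scaffold, -0.18 in the tail and 0.35 in the kinase module. The median of the head is the value of MED17, the tested member with the lowest level (0.0933 FPKM in NC, SE 0.178). That of the kinase module includes MED12L, also at a low level (SE 0.217). Over all genes tested, 35.1% were higher and 33.2% lower, and each module holds few subunits to set beside these shares. Of 30 tested subunits, 9 were higher, 11 were lower and 10 did not pass, with a median of -0.05, whereas 13 were higher and 6 lower with library totals. That median was 0.07 with upper quartile scaling and 0.14 with library totals. Its difference from the median of all genes was -0.08 under TMM. Its summed level was 818 ± 1.57 CPM in NC and changed by -1.93%, but on summed FPKM it was 10.4% higher in siFSCN1.

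In the head, which contacts polymerase II, 3 of 7 subunits were higher, 1 was lower and 3 did not pass. MED11 was at 15.5, 13.3 and 17.0 CPM in NC and at 30.7, 30.1 and 27.5 CPM in siFSCN1. It rose without overlap by 0.94 on the log2 scale (SE 0.075, adjusted p = 3.1e-09). MED20 and MED22 were higher at 0.61 and 0.60, and MED6 was lower at -0.46 (SE 0.054, adjusted p = 5e-07). MED8 at -0.11, MED18 at 0.02 and MED17 at 0.10 did not pass. MED17, a core subunit of the head, was listed at only 0.0933 FPKM in NC, the lowest level of any tested member, and GENCODE v44 has another protein-coding gene model on the same strand that overlaps it over 28152 bases.

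The middle, with its scaffold MED14, had the lowest median of the modules. Of 10 subunits, 6 were lower and 4 did not pass, with a median of -0.30, and none was higher under TMM. With library totals, 3 were lower and 2 higher. The summed level changed by -15.6% in CPM without overlap, but by only -2.15% in FPKM, where the groups overlapped. MED14 was at 40.9, 47.1 and 43.3 CPM in NC and at 33.7, 35.6 and 34.2 CPM in siFSCN1, with a log2 fold change of -0.34 (SE 0.057, adjusted p = 3.8e-05). MED9 was lower at -0.53, MED31 at -0.42, and MED1, which binds nuclear receptors, at -0.31. MED21 and MED10 were lower at -0.30 each. MED26, MED7, MED4 and MED19 lay between -0.18 and 0.07 and did not pass.

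The tail, which receives activators, contained the 2 strongest falls of Mediator. MED16 was at 24.4, 23.4 and 22.1 CPM in NC and at 13.3, 12.9 and 13.3 CPM in siFSCN1, with a log2 fold change of -0.82 (SE 0.068, adjusted p = 4.9e-09). MED27 was at -0.79 (SE 0.067), and MED25 and MED24 were lower at -0.29 and -0.18. MED23, through which activators of the MAPK pathway are known to act, was at 6.16, 6.60 and 6.89 CPM in NC and at 12.3, 11.8 and 12.2 CPM in siFSCN1. It rose by 0.88 on the log2 scale (SE 0.105, adjusted p = 6.3e-07), or by 0.53 on log2(FPKM + 1). MED28 and MED29 were higher at 0.34 and 0.14, and MED30 at -0.23 and MED15 at 0.00 did not pass.

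In the kinase module, which can hold Mediator away from polymerase II, 3 of 4 member genes were higher and none was lower. MED13L was at 27.8, 27.7 and 30.2 CPM in NC and at 37.9, 41.8 and 47.3 CPM in siFSCN1, with no overlap and a log2 fold change of 0.56 (SE 0.069, adjusted p = 9.5e-07). MED12, which activates the kinase, was higher at 0.47 (SE 0.096, adjusted p = 0.00031). MED13 was at 0.24 (adjusted p = 0.011), and without siFSCN1 replicate 3 at 0.12 (adjusted p = 0.13). MED12L was at -0.01 with fewer than 2 CPM in each library. The summed level of the module was 74.4, 76.5 and 76.5 CPM in NC and 89.1, 98.7 and 111 CPM in siFSCN1, so its size varied among the silenced libraries. The kinase and cyclin genes of the module lie outside the symbol rule: CDK8 at 0.32 (adjusted p = 0.0037) and its paralog CDK19 at 0.81 (adjusted p = 1.7e-06) were higher, and CCNC, which encodes cyclin C, was lower at -0.22 (adjusted p = 0.0017).

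The wider list of 42 partners outside the symbol rule had 38 tested genes, of which 25 were lower, 7 were higher and 6 did not pass, with a median of -0.22 and no change of 2-fold. Over all genes tested, 33.2% were lower and 35.1% higher, and the median was 0.03. The partner values are given under TMM scaling only, and the members' counts above moved with the scaling. In TFIIH, all 5 partners (the helicase genes ERCC2 and ERCC3 and the kinase genes CDK7, CCNH and MNAT1) were lower, between -0.67 for CCNH and -0.17 for ERCC2. RRN3, which makes polymerase I ready to initiate, was lower at -0.72 (SE 0.059), and UBTF, which binds ribosomal DNA, at -0.25. All 4 NELF genes, whose complex holds polymerase II in the paused state, were lower, between -0.69 for NELFB and -0.41 for NELFCD. CCNT2, a cyclin of P-TEFb, and HEXIM1, an inhibitor of P-TEFb, were higher at 0.86 and 0.67, while CDK9, its kinase, did not pass (0.12). BRF1, a subunit of TFIIIB, was lower at -0.21, BDP1 was higher at 0.29 and MAF1, a repressor of polymerase III, did not pass (-0.06). TFAM, a transcription factor of mitochondrial DNA, was lower at -0.84 (SE 0.052).

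Across the 109 tested members, the rank correlation of log2 fold change with mean FPKM was -0.25 (Spearman), with exonic length 0.18 and with transcript GC -0.14. Over all genes tested these were -0.37, 0.09 and -0.13. These are descriptions across genes that share the same 6 libraries.

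RefSeq promoters (GRCh38, 250 bases before to 50 after the start) were at hand for 85 tested members. TATAAA on the gene's strand occurred in 4.71% of them (GTF2B, MED7, POLR2M and TAF4B), beside 8.99% of all 27305 promoters and 5.54% of those of tested protein-coding genes. GGGCGG, the GC box, on either strand occurred in 62.4%, beside 48.3% and 76.7%. CCGGAAG, the core bound by ETS factors, on either strand occurred in 43.5%, beside 12.2% and 21.6%. It was present in 10 of 18 promoters of higher members and in 12 of 40 of lower members. The palindromic motif of NRF1 occurred in 6 members (GTF3A, GTF3C1, MED18, POLR2F, POLR2H and POLR3B), or 7.06%, beside 1.52% and 2.58%. A match is a description of the letters in this window and not a bound site.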

How the data were processed

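RNA-seq of polyadenylated A549 RNA gave 3 NC and 3 siFSCN1 libraries, grouped by their titles. The authors deposited raw read counts per gene, whole numbers with no normalization, and FPKM values per gene, scaled by them to gene length and library depth. Per the study's methods the reads were trimmed with FASTX Toolkit, aligned to GRCh38 with HISAT2, and uniquely mapped reads were kept; the submitters' processing notes name TopHat2 instead. The labels and the methods name different stranded library kits, and whether counting used strand is not given in the sources used here. Of the 112 members, 41 overlap another gene on the same strand and 74 overlap one on the opposite strand, so reads of such pairs may not be told apart.

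Counts were filtered with filterByExpr, scaled by TMM and tested in edgeR 4.0.16 (R 4.3.3) by quasi-likelihood over all 17076 genes without covariates, with Benjamini-Hochberg adjustment. The SE given with edgeR's log2 fold changes is the absolute log2 fold change divided by the square root of the quasi-likelihood F statistic. The study used DESeq2, which was run as an alternative (DESeq2 1.42.0). The script was tested on simulated data. CPM were computed after TMM; log2 CPM used a prior count of 2. FPKM served to compare levels between genes and, on log2(FPKM + 0.1) and log2(FPKM + 1), as limma alternatives (limma 3.58.1). Complexes were assigned by hand. Of the symbols listed for them, 3 (GTF2A1L, GTF2H2C_2 and TAF1L) were not analysed here, and 1 member is counted but not reported by name. Of the 112 members, 87 had a RefSeq promoter.

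Members and lists were chosen with earlier results of these data known. Named were FSCN1, members changed at least 2-fold, the strongest passing rise and fall of each complex, and catalytic and shared subunits. TBP, MED14, paralog pairs and members not tested were also named. The rule for partners was a change of at least 2-fold, which none met. The partners and the other members were named after their values were seen. Replicate numbers did not pair the samples (correlations of deviations -0.03, 0.04 and -0.08). Alternatives were other scalings, filters, tools, units, a replicate block, offsets against abundance (loess span 0.3) and leaving out each library.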

Additional observations from a re-analysis of the deposited data

How the results depend on the processing

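The median log2 fold change of the members (-0.17) was -0.19 with RLE scaling, -0.052 with upper quartile scaling, 0.016 with library totals, -0.14 with the stricter filter, -0.13 with offsets against abundance, -0.19 with DESeq2, -0.0088 with limma on log2(FPKM + 0.1), -0.0050 with limma on log2(FPKM + 1), and between -0.186 and -0.157 when single libraries were left out. The number of members higher (24) was 44 with library totals and 38 and 37 with limma at pseudocounts of 0.1 and 1, and the number lower (52) was 34 with both limma fits. Members changed at least 2-fold (5) came to 11 with upper quartile scaling and with library totals, 9 with limma at 0.1, and 1 without the members with a guide seed match, an alternative chosen after seeing the data. POLR1A changed direction to 0.031 with library totals, 0.018 with offsets against abundance, and 0.0099 and 0.0078 with limma. The cause of these shifts was not tested beyond the scaling itself, which moved the median of all genes from 0.03 to 0.22 with library totals. With the replicate block, 25 members were higher, 52 lower and 5 changed at least 2-fold. The standard errors of MED12L (0.217), TAF4B (0.204) and MED17 (0.178) were the widest. MED12L and MED17 were at low levels, whereas the NC libraries of TAF4B differed among themselves (3.04, 6.60 and 5.55 CPM). The part of depth in these standard errors was not tested.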
